A study of Mus musculus with 15 samples.

Results

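The uroplakin genes Upk1a, Upk1b, Upk2, Upk3a and Upk3b were followed in newborn mouse kidney with and without a Six2-driven deletion of Dnmt1, the DNA methyltransferase that copies CpG methylation onto new strands. They are 5 of the 46517 genes counted. They were chosen by their RNA counts in these same KO and control samples, so their RNA values are given below as a description, with no test.

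All samples were from strain C57BL/6. Controls at postnatal day 0 (P0) were Dnmt1 f/f, that is, they carried the floxed alleles without Cre. The knockouts (KO) at P0 carried Six2Cre together with Dnmt1 f/f. Messenger RNA was sequenced in 3 controls and 3 KO samples. CpG methylation was measured by reduced representation bisulfite sequencing (RRBS), which reads cytosines near MspI restriction sites, in 3 controls, 3 KO samples and 3 wild type adults of 6 weeks. The labels give the source as Six2+ cells, yet their extraction text gives whole kidneys as the source of DNA. Markers of proximal tubule and of ureteric and collecting duct epithelium were abundant in every control, with summed levels of 2053 to 5294 and 1617 to 1906 CPM (counts scaled to a common library total), so the samples are described here as kidney. Nothing in the labels says that replicates came from separate animals, so p-values measure only the spread between these samples.

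Uroplakins are the membrane proteins that pave the apical surface of urothelium, the lining of the renal pelvis, ureter and bladder. The tetraspanins Upk1a and Upk1b leave the endoplasmic reticulum as partners of single-pass proteins: Upk1a pairs with Upk2, and Upk1b pairs with Upk3a or Upk3b. The resulting plaques make the surface impermeable to urine. Upk3b is also known from mesothelium. In kidney development Six2 marks nephron progenitors, whereas the collecting ducts and the urothelium of the pelvis arise from other lineages.

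Promoter sequence was on hand for Upk1a, Upk3a and Upk3b, and it sets which start sites RRBS could read. The RefSeq windows (GRCm38.p6), from 250 bases before to 50 bases after the start, are printed in lower case on the strand of the gene, with each CpG that was read 5 times or more in every RRBS sample in capitals. They lie at chr7:30612685-30612984 on the minus strand (Upk1a), chr15:85016891-85017190 on the plus strand (Upk3a) and chr5:136038246-136038545 on the plus strand (Upk3b).
Upk1a: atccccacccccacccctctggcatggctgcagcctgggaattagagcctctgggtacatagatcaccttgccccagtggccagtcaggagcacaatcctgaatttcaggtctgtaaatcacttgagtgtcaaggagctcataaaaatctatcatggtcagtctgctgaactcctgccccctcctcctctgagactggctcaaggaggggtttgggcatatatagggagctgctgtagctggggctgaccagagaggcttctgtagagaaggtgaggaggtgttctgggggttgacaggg
Upk3a: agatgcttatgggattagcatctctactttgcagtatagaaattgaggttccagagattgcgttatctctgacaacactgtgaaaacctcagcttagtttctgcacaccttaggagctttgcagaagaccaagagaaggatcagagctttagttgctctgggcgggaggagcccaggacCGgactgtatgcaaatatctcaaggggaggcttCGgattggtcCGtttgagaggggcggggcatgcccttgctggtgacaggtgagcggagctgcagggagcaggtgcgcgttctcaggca
Upk3b: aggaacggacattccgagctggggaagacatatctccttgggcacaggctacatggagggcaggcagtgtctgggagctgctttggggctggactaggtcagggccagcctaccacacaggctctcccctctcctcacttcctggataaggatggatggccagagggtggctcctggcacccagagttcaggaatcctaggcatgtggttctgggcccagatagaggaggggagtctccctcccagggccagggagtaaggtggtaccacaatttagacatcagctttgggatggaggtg
The Upk3a window held 9 CpGs, of which 3 were measured, and 1 CCGG, the site that MspI cuts. Upk1a had 0 CpGs in its window and Upk3b had 2, neither measured. The median over 32851 RefSeq promoters was 7 CpGs, and 52.8% of them held a CCGG on either strand. The KLF motif GGGCGGGG and the GATA motif AGATAA, both searched on both strands, each had 1 match in the Upk3a window and 0 in the windows of Upk1a and Upk3b. Of all promoters 17.6% and 11.2% held them. TATAAA, the grainyhead-like motif AACCNGTT and the forkhead motif TGTTTAC had no match in the 3 windows, and 13.6%, 2.09% and 3.65% of all promoters held them.

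The RNA libraries held 26773937 to 34102567 gene counts, with KO 3 the shallowest. Dnmt1 RNA, which checks the labels, stood at 175 ± 16.6 CPM in controls against 105 ± 9.57 CPM in KO (SD, n = 3 each), with no overlap. Of 18132 genes tested, 6.36% rose and 8.23% fell in KO (edgeR quasi-likelihood test, adjusted p under 0.05), and the median log2 fold change of all of them was close to 0. Those 1153 and 1493 genes became 2512 and 2561 without control 3, 647 and 701 without KO 1, 742 and 779 without KO 2, 734 and 790 without KO 3, and 734 and 1012 without control 1. All CPM values below were scaled by TMM, and the 5 uroplakins all passed the filter on low counts.

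Every uroplakin had a higher mean in KO, from 2.02-fold for Upk1a to 5.60-fold for Upk3a, and the KO samples differed widely from each other. KO 1 was the highest sample for each of the 5 genes. KO 3 lay within or near the control range for 3 of them.

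The tetraspanin Upk1a (ENSMUSG00000006313.4, chromosome 7, 30603092 to 30612734) had levels of 16.8, 21.1 and 19.4 CPM in controls 1 to 3 and 68.2, 30.8 and 16.6 CPM in KO 1 to 3. KO 1 and KO 2 were above the controls, while KO 3 was below all 3 of them. The means were 19.1 ± 2.14 and 38.5 ± 26.7 CPM (SD, n = 3 each), and the log2 fold change was 1.01 (SE 0.43).

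Upk1b (ENSMUSG00000049436.4, chromosome 16, 38773182 to 38800203), the other tetraspanin, stood at 15.5, 24.3 and 16.2 CPM in controls and at 88.8, 45.4 and 20.4 CPM in KO. KO 3 fell between the controls. Its means were 18.7 ± 4.87 and 51.5 ± 34.6 CPM, with a log2 fold change of 1.47 (SE 0.46).

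Upk2 (ENSMUSG00000041523.2, chromosome 9, 44452715 to 44454767), the partner of Upk1a, gave 5.45, 9.13 and 7.34 CPM in controls and 30.6, 15.7 and 8.28 CPM in KO. As for Upk1b, 2 KO samples exceeded every control and KO 3 did not. The means were 7.31 ± 1.84 and 18.2 ± 11.4 CPM, and the log2 fold change was 1.32 (SE 0.44).

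Upk3a (ENSMUSG00000022435.5, chromosome 15, 85017141 to 85022560), a partner of Upk1b, showed the largest difference of the 5. Its levels were 16.2, 20.9 and 14.7 CPM in controls and 126, 123 and 40.1 CPM in KO. The lowest KO sample was 2.32 times the control mean, and the other two were 7.31 and 7.16 times that mean. The means were 17.2 ± 3.26 and 96.5 ± 48.9 CPM, with a log2 fold change of 2.49 (SE 0.40).

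Upk3b (ENSMUSG00000042985.7, chromosome 5, 136038496 to 136044993) had 6.18, 7.99 and 6.09 CPM in controls and 26.4, 18 and 9.84 CPM in KO. Here too the groups did not overlap. The means were 6.76 ± 1.07 and 18.1 ± 8.29 CPM, and the log2 fold change was 1.42 (SE 0.34).

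**Figure D1:**
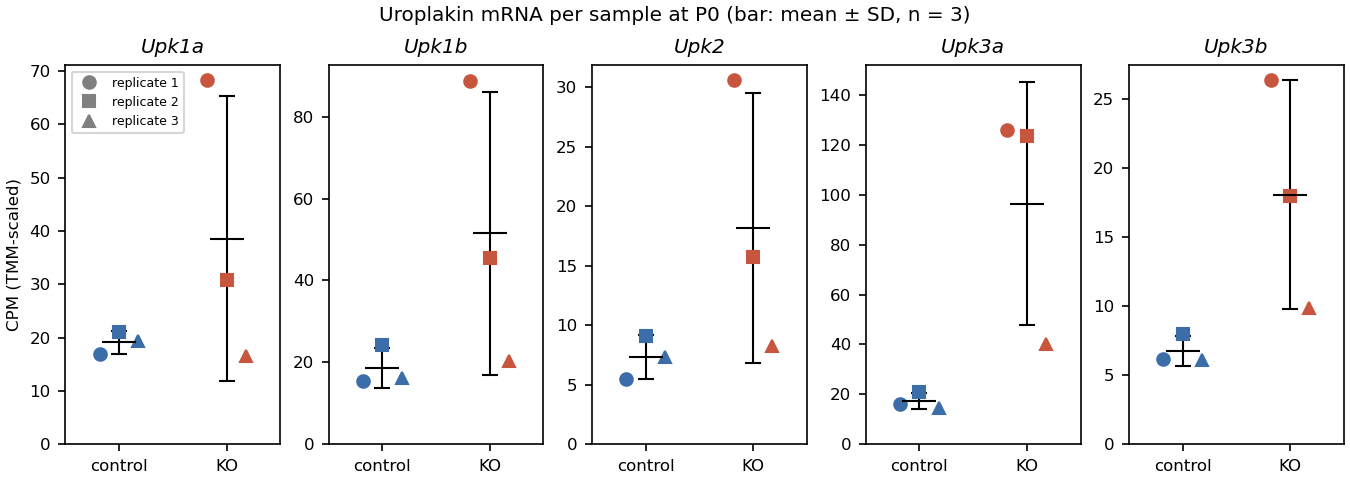
Level of each uroplakin in TMM-scaled CPM (linear axis from 0, one scale per panel) in the 3 control and 3 KO samples at P0, with the mean and SD as bars. KO 1 is the highest sample in every panel, and KO 3 overlaps the controls for Upk1a, Upk1b and Upk2.

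Upk3a and Upk3b, 2 of the 5, had every KO sample above every control, against 16.5% of all tested genes. Since this contrast chose the genes, nothing is read from that count. The size rests on KO 1 in particular: without it the log2 fold changes were 0.31 for Upk1a, 0.82 for Upk1b and 0.72 for Upk2, while Upk3a kept 2.25 and Upk3b 1.04. Without KO 3 they were 1.37, 1.85, 1.66, 2.85 and 1.72 in the order Upk1a, Upk1b, Upk2, Upk3a, Upk3b. In these bulk samples fewer or more urothelial cells and less or more RNA per cell cannot be told apart.

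The balance among the uroplakins also differed between the groups. Upk3a made up 26.9%, 25.1% and 23.0% of the counts summed over the 5 genes in controls and 37.0%, 52.9% and 42.1% in KO. Its lowest KO share was above its highest control share. The share of Upk1a went the other way, from 28.0%, 25.3% and 30.5% in controls to 20.1%, 13.2% and 17.4% in KO. Shares of a whole are tied, so a larger share of Upk3a leaves less for the others. The mean level of Upk1a itself was higher in KO. The ratio of Upk3a to Upk1a counts was 0.962, 0.992 and 0.755 in controls and 1.85, 4.01 and 2.42 in KO. KO 2, not KO 1, had the largest ratio. Against its own partner Upk1b, Upk3a had ratios that went from 1.04, 0.861 and 0.904 among controls to 1.42, 2.72 and 1.96 among KO samples. Each of these ratios compares 1 pair of genes across samples. Its level depends on the lengths of both transcripts. Its fold difference between samples depends neither on these lengths nor on the scaling of the libraries. The ratios come from the contrast that chose the genes and are given without a test.

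Across the 6 samples the log2 CPM of Upk1b and Upk2 had the highest Pearson correlation within the family, 0.99, and that of Upk1a and Upk3a the lowest, 0.79. These are descriptions over 6 samples that fall into 2 groups. The 10 other genes whose log2 CPM most resembled the mean uroplakin profile were Lrp6, Cplane1, Exph5, Apc, Itga2, Pcdhb18, Tnpo1, Rps6kc1, Psca and Hr, with correlations of 0.997 down to 0.977. Psca, a surface antigen of urothelium, was the only one of them in the urothelial list. Its levels were 10.6, 14.3 and 16 CPM in controls and 55.0, 36.6 and 15.7 CPM in KO, so KO 3 again lay within the controls. Lrp6, the closest, moved little, with a log2 fold change of 0.16 (SE 0.11).

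Other genes of urothelium were higher in KO as well. Of 25 tested genes of a list of urothelial keratins, transcription factors and junction proteins, 11 rose and 0 fell, beside 6.36% and 8.23% of all genes (edgeR, adjusted p under 0.05). Fgfr3 was the single gene of the list with an unadjusted p under 0.05 and a lower level. The median log2 fold change of the list was 0.83, and 24 of the 25 were positive. The list was chosen with earlier results of these data known and is not independent evidence. The count of 11 became 3 without control 1, 4 without KO 1, 5 without KO 2 and 7 without control 2, and it was 17 with DESeq2.

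The largest increases were in Ivl, an envelope protein of squamous epithelium, and in Krt5, the keratin of basal urothelial cells. Ivl went from 0.609, 1.07 and 0.544 CPM in controls to 13.2, 3.41 and 2.70 CPM in KO, a log2 fold change of 3.13 (SE 0.66, edgeR adjusted p 0.0163). Krt5 stood at 2.01, 1.94 and 2.69 CPM in controls and at 39.0, 5.77 and 6.27 CPM in KO, with a log2 fold change of 2.94 (SE 0.74, edgeR adjusted p 0.0329). Both have one high sample, KO 1, and 2 KO samples far below it. Foxa1, a forkhead factor of endodermal and urothelial epithelium, had 2.83, 3.88 and 3.04 CPM in controls and 19.0, 16.9 and 5.70 CPM in KO (log2 fold change 2.09, SE 0.42, edgeR adjusted p 0.0136). All 3 of these calls were lost without control 1, with edgeR adjusted p of 0.0593 to 0.115. The call of Foxa1 was also lost without KO 1 and without KO 2, and that of Krt5 without control 2. Without KO 1 the log2 fold changes were 1.44 for Krt5 and 2.05 for Ivl.

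Krt20, the keratin of umbrella cells, also rose, with a log2 fold change of 1.92. Krt19 rose by 1.60, Klf5 by 1.38, Shh, the ligand made by urothelium, by 1.35, and Pparg, a factor of urothelial differentiation, by 0.90. Upk3bl, a relative of Upk3b, rose by 1.71 from 1.40, 1.65 and 1.06 CPM in controls. Reads that aligned to several places were left unassigned in these counts. How well reads of Upk3b and Upk3bl were told apart was not tested. Cldn3, also made by collecting duct, rose by 0.83. Krt7 and Erbb3 had log2 fold changes of 0.12 (SE 0.20) and 0.05 (SE 0.13). Krt13 was too low to test, at most 0.228 CPM in any sample.

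**Figure D2:**
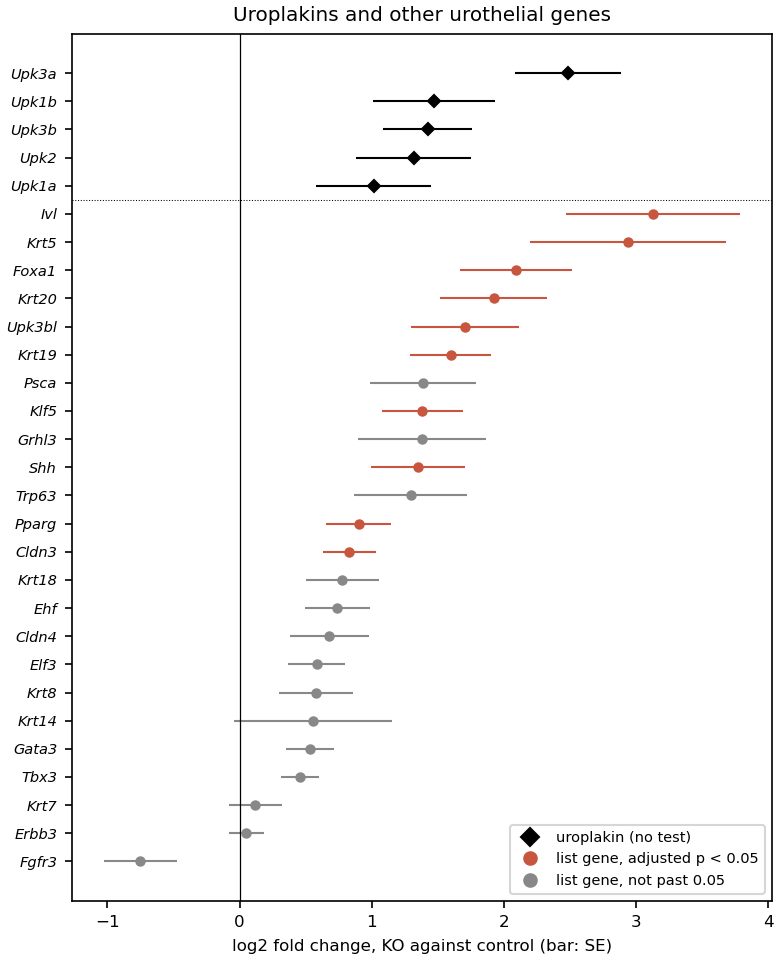
Log2 fold change of KO against control with its SE for the 5 uroplakins (black diamonds, no test) and 24 of the 25 tested genes of the urothelial list (red where the edgeR adjusted p was under 0.05, grey otherwise). Fgfr3 is the one gene left of 0, and Upk3a lies at 2.49, below only Ivl and Krt5.

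A list of genes that carry uroplakin plaques to the apical membrane did not move as a whole. Some of its genes were abundant in controls: Rab11a, Mal and Myo5b had control means of 191, 195 and 160 CPM. Which cells made them was not tested, so the list does not speak for urothelium alone. Of 10 tested trafficking genes, 1 rose and 0 fell, beside 6.36% and 8.23% of all genes, with a median log2 fold change of -0.08. At an unadjusted p under 0.05, 3 were lower and 3 higher. The one called was Mal2, a raft-associated protein of apical transport, with a log2 fold change of 0.75 (SE 0.21, edgeR adjusted p 0.0473), a call lost when any library but control 3 was left out. Snx31, a sorting nexin that binds uroplakins in endosomes, had 6.76, 10.7 and 9.70 CPM in controls and 38.4, 28.2 and 8.63 CPM in KO. Rab27b, a small GTPase of fusiform vesicles, had 4.84, 6.67 and 7.50 CPM in controls and 22.6, 11.9 and 8.36 CPM in KO. Their log2 fold changes were 1.47 (SE 0.47) and 1.17 (SE 0.36). Neither passed the test (edgeR adjusted p 0.0759 and 0.0693), and both were highest in KO 1. Myo5b went the other way, with a log2 fold change of -0.49 (SE 0.14, edgeR adjusted p 0.0562). In 4 of the 10 genes, Rab11a, Vps33a, Mal and Myo5b, every KO sample was below every control, against 17.8% of all tested genes. In 2 every KO sample was above every control, against 16.5%.

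Other tetraspanins, the family of Upk1a and Upk1b, showed no common shift. Of 27 tested, 2 rose and 4 fell, beside 6.36% and 8.23% of all genes, and the median log2 fold change was -0.07. The largest in each direction were Tspan1 at -1.02 (SE 0.26, edgeR adjusted p 0.0333), Tspan2 at -0.75 (SE 0.19, edgeR adjusted p 0.0348) and Tspan8 at 0.65 (SE 0.17, edgeR adjusted p 0.0341). Each of the 3 calls was lost in at least 4 of the 10 alternatives.

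Markers of neighbouring cell types are given because bulk levels of the uroplakins depend on which cells were taken. Their counts of called genes stand beside 6.36% of all genes that rose and 8.23% that fell. With so few genes per list, small counts are not read as a result. For ureteric and collecting duct epithelium, 2 of 15 rose and 2 fell, and the summed level was 1617 to 1906 CPM in controls and 1284 to 1781 CPM in KO. For the muscle of ureter and pelvis, 1 of 10 rose and 0 fell (2 were higher and 0 lower at an unadjusted p under 0.05), with sums of 624 to 720 CPM in controls and 466 to 730 CPM in KO. For mesothelium, 2 of 7 rose, Lrrn4 and Aldh1a2, and Gpm6a fell, with sums of 224 to 334 CPM in controls and 455 to 556 CPM in KO. Without Aldh1a2, the abundant gene of that list, the sums were 74.6 to 90.1 CPM in controls and 70.3 to 83.0 CPM in KO, a reckoning added after the values were seen. Lrrn4 was near 0 in controls, at 0.261 ± 0.0878 CPM, and at 5.06 ± 3.2 CPM in KO (SD, n = 3 each). The urothelial list summed to 988 to 1300 CPM in controls and 1391 to 2071 CPM in KO. Its sum leans on a few abundant genes: Krt8, Krt7, Krt18 and Cldn4 had control means of 257, 148, 144 and 101 CPM. Which cells made them was not tested, so the sum is not a level of urothelium. For proximal tubule, all 10 fell, with a median log2 fold change of -3.24 and sums of 2053 to 5294 CPM in controls and 407 to 488 CPM in KO. For nephron progenitors, 2 of 9 rose and 2 fell. The part of these cell types in the uroplakin values was not tested.

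The order of the KO samples differed between the lists. As a mean of log2 CPM relative to the control mean, KO 1 to 3 stood at 2.21, 1.48 and 0.39 for the uroplakins and at 1.39, 1.14 and 0.42 for the urothelial list. The trafficking list had the same order in its mean, at 0.35, 0.24 and -0.07. Its genes did not all follow it: Mal, Mal2 and Myo5b had KO 2 as the highest KO sample, unlike Snx31 and Rab27b. The muscle list ran 0.68, -0.38 and 0.38, and the mesothelial list 0.79, 0.80 and 1.03. KO 3, the KO sample with the lowest uroplakins, thus had the highest mean of the mesothelial list. The genes of that list did not all run this way. Lrrn4 had 3.49, 2.95 and 8.74 CPM in KO 1 to 3, whereas Msln had 12.8, 28.6 and 6.23 CPM.

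**Figure D3:**
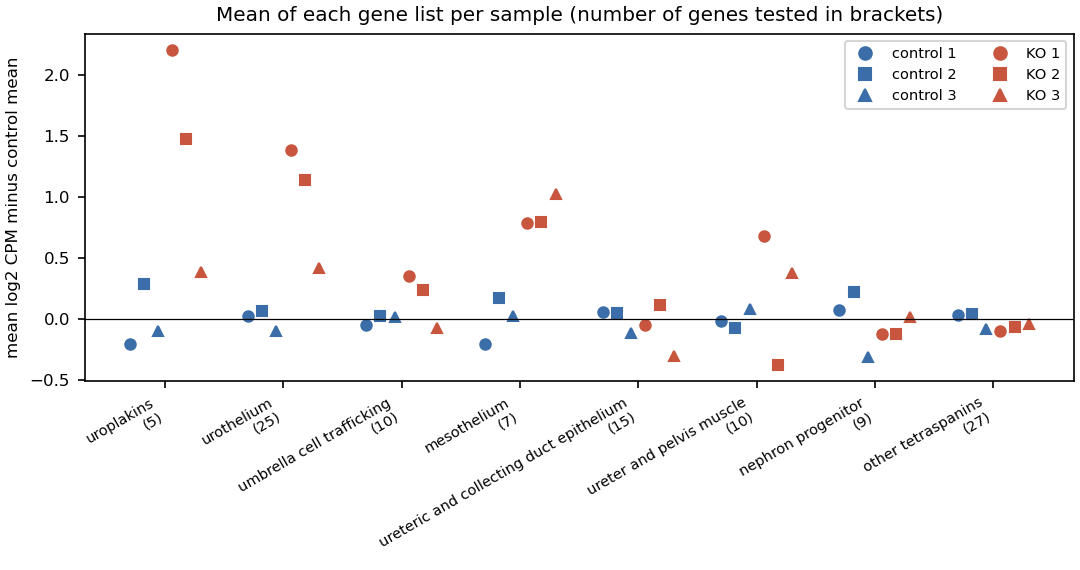
Mean log2 CPM of each gene list in each RNA sample, relative to the mean of the 3 controls (blue) with KO samples in red; the proximal tubule list, at -2.87 to -3.39 in KO, is left off the axis. The uroplakins, the urothelial list and the trafficking list run in the order KO 1, KO 2, KO 3 from high to low, whereas the muscle and mesothelial lists do not.

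Methylation was read at positions in each gene and within 2 kb of it. KO 3 was the shallowest RRBS sample, with a median of 4 calls per position, against 6 to 18 in the others. A depth of 10 calls or more in each of the 9 samples was reached at 8 positions of Upk1a, 11 of Upk1b and 7 of Upk3b, and at 0 of Upk2 and Upk3a. The window of Upk1a also holds Zbtb32, and that of Upk3a holds the long noncoding RNA Gm52194. Neighbouring positions share reads and are not independent.

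Over the 26 positions, mean methylation was 59.1%, 63.3% and 68.0% in controls, 44.1%, 41.3% and 38.8% in KO, and 63.4%, 67.2% and 66.2% in adults. Every KO sample lay below every control, and the adults overlapped the controls. The KO mean differed from the control mean by -22.0 points and the adult mean by 2.17 points. The two-sided exact permutation test gave p = 0.1 for KO, the smallest that 3 against 3 allows (adjusted over 8 tests, 0.16), and p = 0.6 for adults (adjusted 0.686). Over all 360390 positions of the series with the same coverage the difference was -13.4 points. Without KO 3, when 50 uroplakin positions reached the depth, the KO difference was -14.0 points. With a minimum of 5 calls it was -15.3 points on 51 positions, against -11.5 points over 744624 positions of the series.

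By gene, the KO loss was 32.2 points at Upk3b, where the level went from 65.0% ± 5.19 to 32.9% ± 5.33 (SD, n = 3 each). Upk1b went from 69.4% ± 8.58 to 45.5% ± 9.08 and Upk1a from 53.9% ± 1.52 to 43.3% ± 0.685. In each of the 3 genes every KO sample was below every control (exact permutation p = 0.1, adjusted 0.16). The same held for 71.4% of 14901 protein-coding genes with at least 3 such positions, whose median difference was -10.1 points. Among the 7446 of these genes with a control level of at least 40% it was -17.1 points. With a minimum of 20 calls, Upk3b rested on 2 positions and its difference was -16.9 points, and that of Upk1a was -18.5 points on 4.

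Adults had 77.2% ± 2.35 at Upk1b, 66.1% ± 4.36 at Upk3b and 49.3% ± 0.629 at Upk1a. Adults were wild type and controls Dnmt1 f/f, so age and genotype cannot be told apart in any adult difference given here. Each adult was below each control at Upk1a, by 4.65 points in the mean (exact permutation p = 0.1, adjusted 0.16), as in 25.5% of the gene windows. At 20 calls that difference turned to 0.62 points. Neither Upk1b nor Upk3b had every adult above every control at 10 calls, which 12.9% of the windows had. With a minimum of 20 calls, on 5 positions, Upk1b stood at 59.4% ± 3.90 in controls and 70.8% ± 1.75 in adults (SD, n = 3 each), a difference of 11.5 points with every adult above every control (exact permutation p = 0.1).

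**Figure D4:**
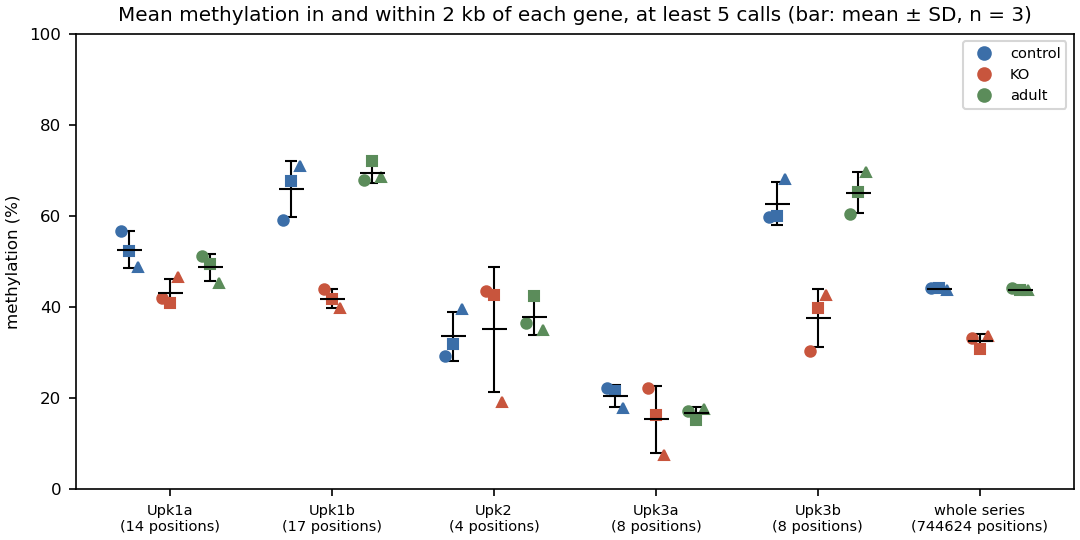
Mean methylation in and within 2 kb of each gene over positions read 5 times or more in each of the 9 samples, one point per sample (circle, square and triangle for replicates 1 to 3) with mean and SD, beside the whole series. KO samples lie below the controls at Upk1a, Upk1b and Upk3b and overlap them at Upk2 and Upk3a.

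At the lower minimum of 5 calls all 5 genes had values. Upk2, on 4 positions, stood at 33.5% ± 5.47 in controls, 35.1% ± 13.8 in KO and 37.9% ± 4.0 in adults. Upk3a, on 8 positions, stood at 20.5% ± 2.4, 15.3% ± 7.37 and 16.7% ± 1.28. KO and control samples overlapped at both genes, and KO 3 was the lowest KO sample at each, at 19.2% and 7.50%.

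The start site of Upk3a, the gene with the largest RNA difference, had little methylation in any group. The 6 positions read there lie 71, 38 and 28 bases before and 109, 119 and 138 bases after the start, and the first 3 are the capitals in its printed promoter. Summed over them, controls 1 to 3 had 3 of 96, 7 of 317 and 0 of 131 calls methylated, that is 3.13%, 2.21% and a count of 0 that allows up to 2.29%. KO 1 to 3 had 7 of 203, 1 of 268 and 0 of 42, or 3.45%, 0.373% and a count of 0 that allows up to 7.14%. Adults had 0 of 174, 12 of 328 and 10 of 468. The limits given for a count of 0 are 3 calls over the calls read, which is not the limit of the exact 95% binomial interval. Of the samples with methylated calls, the upper limit of that interval was 8.86% in control 1 and 6.98% in KO 1. All these limits cover counting error only. They treat every call as independent, although neighbouring positions share reads, so they are too narrow. The percents of the groups overlapped. KO was not tested against control here, since KO 3 had fewer than 10 calls at each position. Inside the gene, 3653 bases after the start, one position was at 88.9% in controls, 78.3% in KO and 81.5% in adults, on as few as 6 calls. Another, 5203 bases after the start, was at 50%, 62.1% and 75% in controls, 60%, 53.3% and 0 of 5 calls in KO, and 37.5%, 35% and 38.9% in adults. There every adult was below every control, on as few as 5 calls and with no test.

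The higher-coordinate end of Upk1b was also low. Positions 38800252 and 38800257, just past that end, were at 6.67% and 2.30% in controls and had no methylated call in KO samples, on as few as 5 calls. The annotation used gave no strand for Upk1b, so this end is not named as start or end of transcription.

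At single positions, 11 of the 26 tested fell in KO and 0 rose, against 34.8% and 0.124% of 380162 positions (quasi-binomial logistic model, adjusted p under 0.05 and at least 10 points). The 11 are 42.3% of those tested, and 0 of the 26 had an unadjusted p under 0.05 and a higher level. They were 2 at Upk1a, 6 at Upk1b and 3 at Upk3b. At Upk1b the groups overlapped at the called positions 38772169, 38772174, 38772182 and 38785491. At 38772174 control 1, at 44.4%, was below KO 1 to 3, at 77.8%, 44.7% and 52.9%. The other called positions had every KO sample below every control. The count of 11 depends on how the spread between samples was estimated. The estimate used here replaced a first version that had failed a check of its sensitivity, and the calls of that version on these genes had by then been seen. The first version called 3 of the 26, with 2 at Upk1a, 1 at Upk1b and 0 at Upk3b, and 14.5% of all positions. The count was 5 without KO 2, 6 without control 2 and 7 of 50 without KO 3.

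The largest called decrease of Upk1a was at position 30605182, inside the gene, with 100%, 89.0% and 87.9% in controls, 57.5%, 48.8% and 61.5% in KO and 97.5%, 100% and 89.0% in adults. The KO samples were separate from all others there (adjusted p 0.000255 in the quasi-binomial model). At Upk1b it was position 38772139, beyond the lower-coordinate end, with 76.9%, 74.5% and 71.7% in controls and 43.9%, 41.7% and 14.3% in KO (adjusted p 0.00356). At Upk3b it was position 136043040, inside the gene and 4544 bases after the start, with 100%, 80.0% and 70.0% in controls and 15.8%, 26.7% and 50% in KO (adjusted p 0.0103), on as few as 10 calls.

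Upstream of Upk1a the positions differed among themselves. At 776 and 800 bases before the start, controls averaged 76.6% and 89.7%, while KO 1 had 36.4% and 31.8% and KO 2 had 11.1% at both. KO 3 was at 50% at both. KO 2 had 9 calls and KO 3 had 4 calls at each, so neither position was tested. At 657 and 661 bases before the start, controls averaged 34.0% and 49.3% and KO samples 36.9% and 47.9%. Every KO sample was thus below every control at the farther pair, on these few calls.

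**Figure D5:**
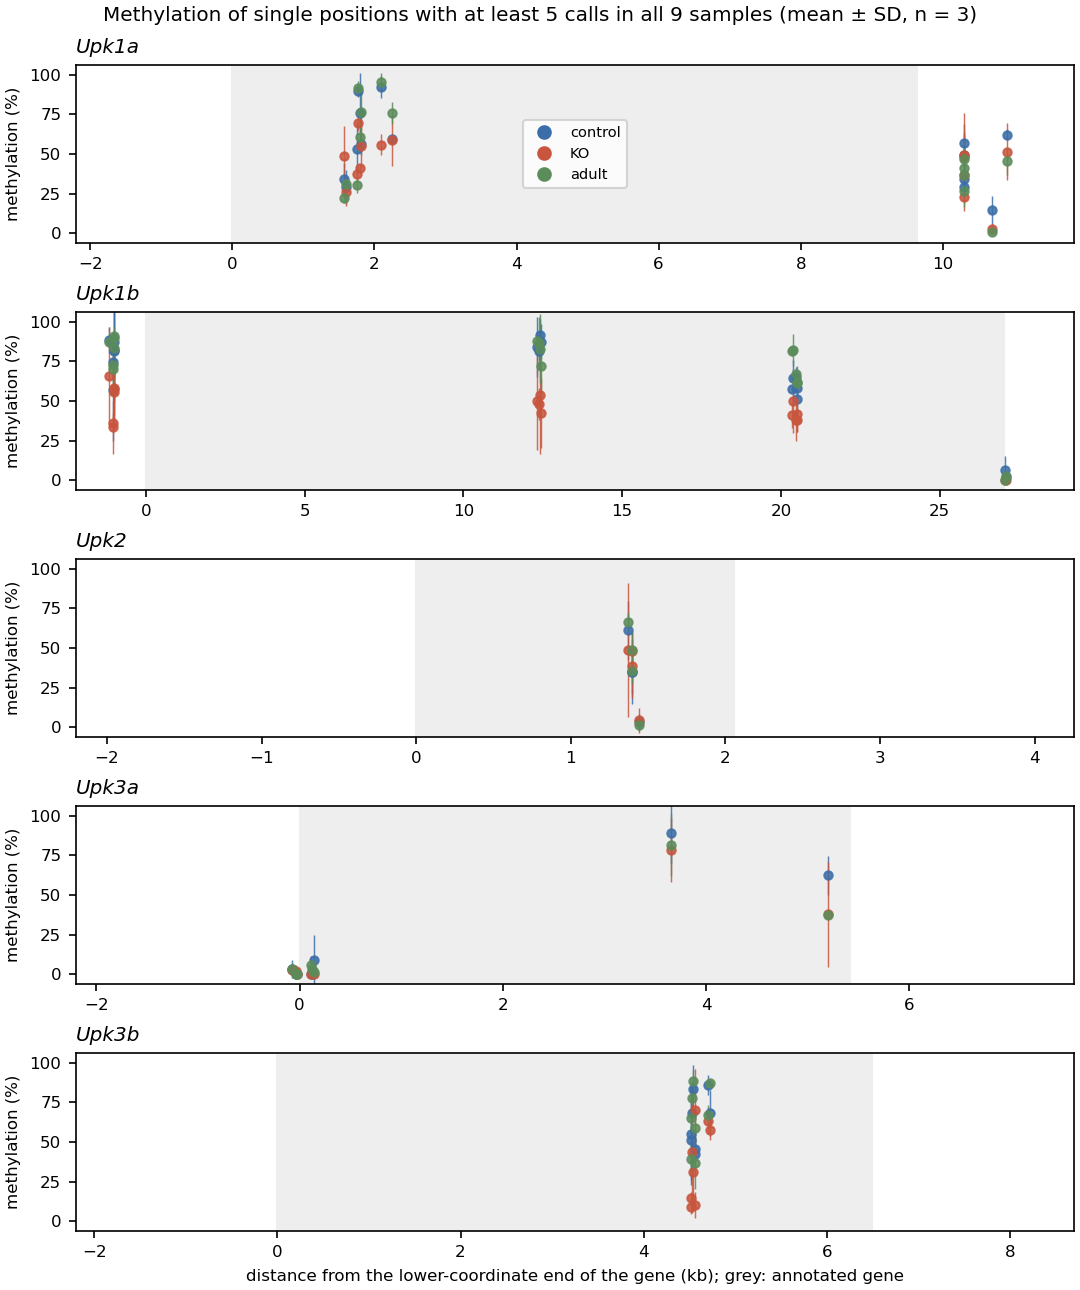
Methylation of each position read 5 times or more in each of the 9 samples (mean and SD of 3 samples, control blue, KO red, adult green) against its distance in kb from the lower-coordinate end of the gene, grey marking the annotated gene. KO values lie below controls at most positions of Upk1b and Upk3b, while the Upk3a start is near 0 in all groups.

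Between adults and P0 controls, 0 of 53 tested positions passed in either direction in the quasi-binomial model, against 1.81% lower and 1.71% higher of 704580 positions. At an unadjusted p under 0.05, 5 were lower and 4 higher, and with no overdispersion 6 were lower and 4 higher by the adjusted p. No RNA was analysed here for adults, so their methylation has no matching uroplakin levels.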

How the data were processed

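The authors deposited a raw read count per gene for the RNA samples and, per cytosine position, a methylation percent with methylated and unmethylated call counts for the RRBS samples. Trim Galore, Bismark, STAR 2.4.1d and HTSeq 0.6.1 are named, with build GRCm38, in the submitters' processing notes. The strand setting of the counting is not given in the sources used here. Of RRBS positions in RefSeq promoters, 99.6% fell on a CpG.

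Gene counts were tested with edgeR 4.0.16 (TMM, its filter on low counts, quasi-likelihood test, Benjamini-Hochberg adjustment, SE from the F statistic), on the whole table. Percents were recomputed from the deposited call counts. Positions needed 10 calls in every sample compared and entered a quasi-binomial logistic model (Python 3.11.15, numpy 2.4.6, scipy 1.17.1) with a dispersion moderated as in limma and not under 1. Its prior came from positions with levels of 10% to 90%. That prior was chosen after seeing the data: an earlier version, with a prior from all positions, recovered 0% of 3000 simulated decreases of 25 points among 60000 positions, and the present one recovered 53.6%, with 4.62% of its calls unchanged positions. Its calls on the uroplakins had been seen before the change, and the alternative is reported.

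The members and the 8 gene lists were chosen with earlier results of these data known. Named were all members, Dnmt1, up to 3 called genes per list with the largest change, the 10 genes most like the uroplakin profile, and for each member the position with the largest called difference. Further list genes named were chosen after their values were seen, as were the positions upstream of Upk1a. The list gene with the highest length-scaled level was not given, since transcript lengths were not used, and for Upk1b and Upk2 strand, promoter and the position nearest the start are not analysed here. Some genes this rule picks are left out of the text. One gene of the urothelial list counts in its totals and is not reported here. Alternatives were DESeq2 1.42.0, library size alone, no filter, a replicate block, other coverage minimums, regions and weights, no overdispersion, and each replicate left out.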

Additional observations from a re-analysis of the deposited data

How the results depend on the processing

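All 5 uroplakins had a positive log2 fold change under all 10 RNA alternatives, with the median between 0.82 (without KO 1) and 1.72 (without KO 3). The number of genes called varied from 647 to 2512 higher and 701 to 2561 lower when single samples were left out. Genes of the urothelial list called higher ranged from 3 to 14 with samples left out and were 17 with DESeq2, and 1 was called lower with no filter. Of 20 genes named from the lists, 5 stayed past the threshold in every alternative and 15 lost the call in at least 1. The 5 were Lrrn4, Gpm6a, Des, Cited1 and Kap, and none of them was in the urothelial list. With samples left out, uroplakin positions called lower in KO ranged from 5 to 11. They were 4 with a minimum of 20 calls, 18 with no overdispersion and 3 with the dispersion prior from all positions, an alternative chosen after seeing the data. That prior called 0 positions of the whole series in adults, in either direction. Adult positions were 6 lower and 4 higher with no overdispersion. The KO difference over the uroplakin positions ranged from -24.2 to -14.0 points with samples left out. That of adults was -0.0203 to 3.26, negative without control 1. At 20 calls the adult difference was 0.62 at Upk1a and -0.10 at Upk3b, and at Upk3b it ranged from -0.80 to 3.99 with samples left out. No position lay within 1 kb of a start site with 10 calls, so that alternative has no value. The cause of these shifts was not tested.

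Whether replicate numbers pair the samples could not be settled. Deviations of equally numbered samples from their group means had a mean correlation of -0.14 for RNA and -0.00317 for RRBS. For unequal numbers it was 0.07 and 0.00160. Deviations within a group cancel out, so the values for unequal numbers largely follow from those for equal numbers. With a replicate block 798 genes rose and 1005 fell, 11 urothelial genes rose, the uroplakin median was 1.24, and 8 uroplakin positions were called lower in KO. The blocked differences in methylation were -22.0 points in KO (exact sign-flip p = 0.25, the smallest 3 pairs allow) and 2.17 points in adults (p = 0.5).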
